A study of Homo sapiens with 7 samples.

Results

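IRF2BP2 lies on the minus strand of human chromosome 1 in a stretch where the vitamin D receptor (VDR) was found at many places after hormone treatment. The 600 kb around the gene, chromosome 1 from 234600000 to 235200000 in hg19, held 46 sites with a VDR peak, of 28993 sites in the part of the genome that all 6 peak lists cover. A site is a run of peaks from any list that share at least 1 bp. Of the 46 sites, 13 were called in all 3 lists made after hormone treatment, against 4.20% of all sites. In all 3 hormone lists and no solvent list (called 1,25D-only below) were 4 of the 46, or 8.70%, against 1.70% of all sites. In every list were 2 of the 46, or 4.35%, against 1.03% of all sites. Among sites in all 3 hormone lists only, these classes made up 30.8% and 15.4% in the window, against 40.4% and 24.5% over the covered part. The number called in all 3 solvent lists and no hormone list was 0, against 0.0379% of all sites. The window was chosen by its peak calls and fold enrichments in these same lists, so both are given as a description, with no test, and nothing is read from the distance to those shares.

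The lists come from THP-1, a cell line established from the blood of a person with acute monocytic leukaemia and used as a model of human monocytes. Cells received 100 nM 1,25(OH)2D3 (called 1,25D), the active form of vitamin D3, or 0.1% ethanol (EtOH) as solvent, and both were harvested after 8 h. An antibody against VDR was used for ChIPmentation, which puts the sequencing adapters on the precipitated chromatin with a transposase. There were 3 libraries per treatment, and 1 input library was not analysed here. The labels number the replicates and do not state that they were separate cultures, so the spread between libraries may be technical.

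VDR is a nuclear receptor that binds DNA together with a retinoid X receptor, typically at a direct repeat of hexamer half-sites separated by a short spacer, and its transcriptional activity changes when 1,25D occupies it. Such sites are often far from any promoter. IRF2BP2 (interferon regulatory factor 2 binding protein 2) is a nuclear zinc finger and RING finger protein, first described as a corepressor that binds IRF2, and in mouse macrophages it has been described as a restraint on inflammatory gene expression. The lists hold no measure of transcription or of contact between a site and a promoter, so which gene any site acts on was not tested.

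Between its protein-coding neighbours, TARBP1 (an RNA methyltransferase) before it and TOMM20 (a receptor of the mitochondrial import machinery) after it along the chromosome, IRF2BP2 shares the RefSeq table's stretch with 23 other genes, 20 of them long non-coding RNAs and none protein-coding. LINC00184 was the next gene after it. That table is of GRCh38, so it gives names and order only. The interval used for IRF2BP2 runs from 234740015 to 234745271 in hg19, and distances below are from 234745271, taken as the gene start. RefSeq has 2 starts for the gene, 653 bases apart, and its gene is 653 bp longer than this interval (5910 against 5257 bp). By these lengths the interval ends at the inner start, and a distance from the outer start would differ by 653 bases.

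The promoter is shown because no list had a peak across the gene start. The bases printed are those of the outer start, which by the lengths above is not the point that distances are taken from. RefSeq (GRCh38.p14) gives these 250 bases before the outer start, chr1:234610179-234610428, minus strand. They were searched on both strands for the VDR half-site AGGTCA, its variant AGTTCA, and the forms GGGTCA as well as GGTTCA, which would stand in capitals.
IRF2BP2 promoter: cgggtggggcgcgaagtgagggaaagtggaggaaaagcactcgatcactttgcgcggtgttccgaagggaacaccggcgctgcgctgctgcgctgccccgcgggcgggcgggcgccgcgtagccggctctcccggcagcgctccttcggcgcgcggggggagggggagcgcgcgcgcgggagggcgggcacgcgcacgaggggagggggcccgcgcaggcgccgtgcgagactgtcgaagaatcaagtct
None of the 4 half-sites was found here or in the 250 bases before the inner start. Among 34943 RefSeq promoter stretches of the same length, 33.8% held at least 1 of them and 0.0658% held a pair in direct repeat with a 3-base spacer. G and C made up 74.4% of the printed bases. These letters are of GRCh38 and are not set against the hg19 peaks.

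VDR peaks in the window were on average more numerous, stronger and longer after 1,25D than after EtOH. The 1,25D lists had 18, 24 and 20 peaks there and the EtOH lists 9, 18 and 10 (replicates 1 to 3), which is 20.7 ± 3.06 against 12.3 ± 4.93 (mean ± SD, n = 3 each). The 1,25D lists ranged from 18 to 24 and EtOH replicate 2 reached 18, so the groups touched. EtOH replicate 2 was the longest list of the series over the covered part, with 11317 peaks against 3647 to 5722 in the others.

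Counting by strength separated the groups. Fold enrichment, the ratio of a peak's signal to the background of the authors' peak caller, was 5 or more at 9, 11 and 8 peaks of the 1,25D lists and at 0, 4 and 1 peaks of the EtOH lists. A fold of 10 or more was reached by 2, 3 and 3 peaks after 1,25D and by none after EtOH. Over the whole covered part a fold of 5 or more was reached by 753, 820 and 896 peaks after 1,25D and by 283, 291 and 190 after EtOH. The difference in strength is thus not particular to this window. For a fold of 10 or more the counts over the covered part were not made. The highest fold in the window was 23.6, 22.1 and 23.0 in the 1,25D lists, against 4.65, 8.07 and 5.06 in the EtOH lists. The lowest of these 1,25D maxima was above every EtOH maximum.

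Peaks had a median length of 356.5, 381.5 and 323 bp after 1,25D, against 185, 165 and 184 bp after EtOH. Over the whole covered part the medians were 162 to 216 bp in the 1,25D lists and 147 to 162 bp in the EtOH lists. The window took 0.346%, 0.658% and 0.452% of all peaks of the 1,25D lists and 0.171%, 0.159% and 0.175% of those of the EtOH lists. Of the peaks with a fold of 5 or more it took 1.20%, 1.34% and 0.893% after 1,25D and 0%, 1.37% and 0.526% after EtOH, so by that measure EtOH replicate 2 was above all 3 1,25D lists. Both replicates 1 come from lists whose highest p-value is lower than in the rest; between these 2 lists the window had 18 against 9 peaks, and in the other lists 24 and 20 against 18 and 10.

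**Figure D1:**
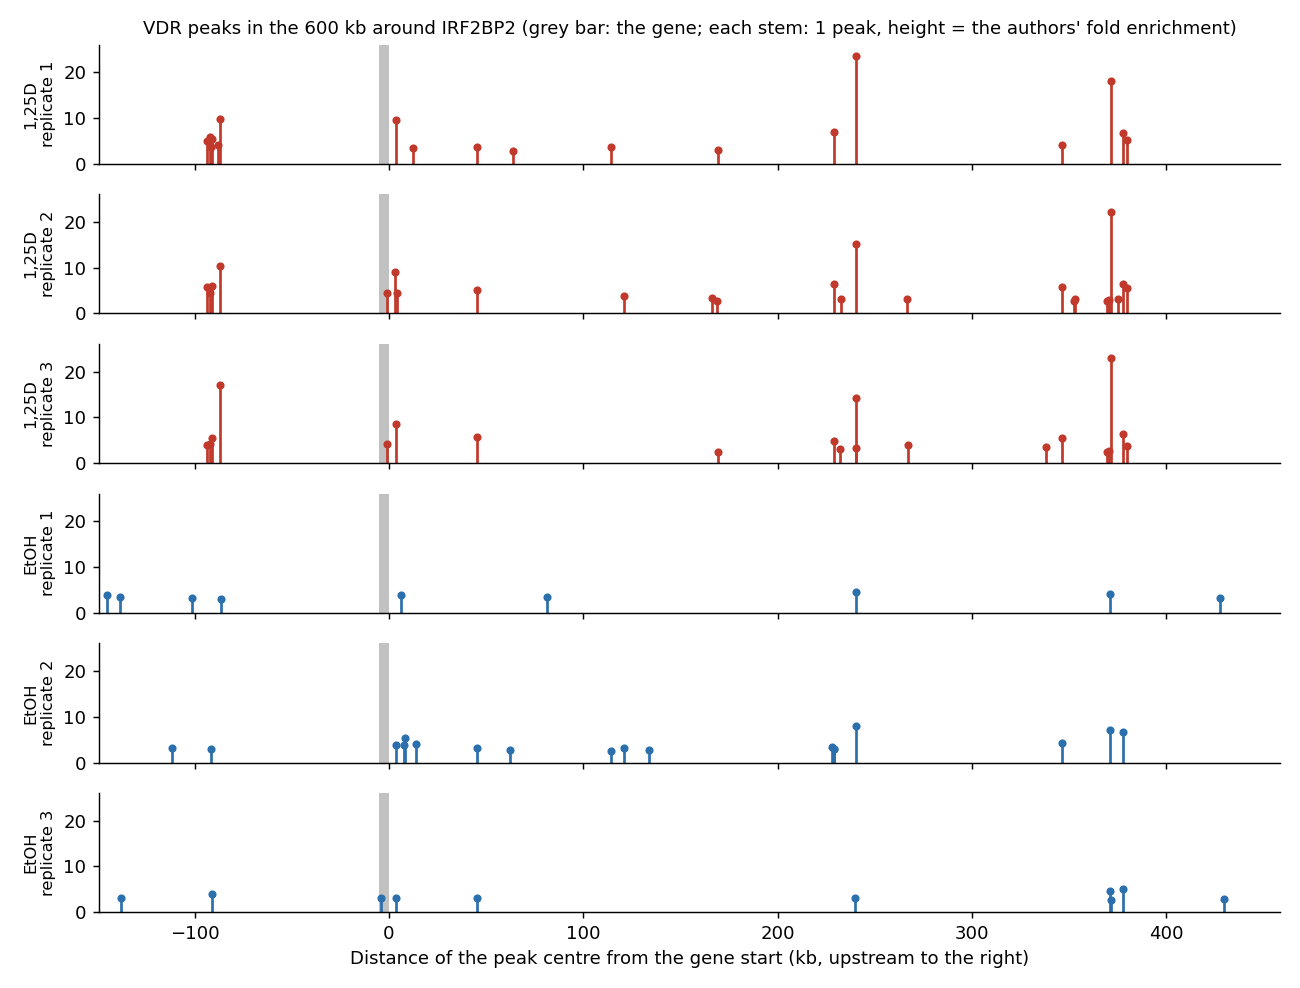
Peaks of each list in the 600 kb around IRF2BP2, with the 1,25D lists above the EtOH lists; the x axis is the distance of the peak centre from the gene start in kb, with upstream to the right, and the height of a stem is the authors' fold enrichment. The tall stems after 1,25D stand about 87 kb downstream and 240 and 371 kb upstream, with folds of 9.88 to 23.6, while no EtOH stem exceeds 8.07.

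The strongest site of the window lay 371 kb upstream of the gene start, at 235116070 to 235117097. Its fold was 18.0, 22.1 and 23.0 in the 1,25D lists, against 4.09, 7.07 and 4.64 in the EtOH lists. All 6 lists called it, the groups did not overlap, and the mean was 21.0 ± 2.68 after 1,25D and 5.27 ± 1.59 after EtOH (SD, n = 3 each), a ratio of 3.99. By mean 1,25D fold it was number 41 of the 1217 sites that all 3 1,25D lists called.

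The other site in all 6 lists lay 240 kb upstream, at 234985019 to 234985900. The fold was 23.6, 15.2 and 14.1 in the 1,25D lists, against 4.65, 8.07 and 3.20 in the EtOH lists. Here too every 1,25D value exceeded every EtOH value, with means of 17.6 ± 5.17 and 5.31 ± 2.50 (SD, n = 3 each) and a ratio of 3.32. The order of the replicates differed between both sites, since 1,25D replicate 1 was the highest of its group here and the lowest at 371 kb. It was number 67 of the 1217 sites.

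Peaks at both sites were longer after 1,25D. At 371 kb a list covered 910 bp on average after 1,25D and 362 bp after EtOH, and at 240 kb 760 bp and 260 bp. Of the 298 sites in all 6 lists of the covered genome, 61.4% had a lowest 1,25D fold above their highest EtOH fold, so the separation at both of these sites is common among sites of that class. The median ratio of mean folds over the 298 sites was 1.60, below the ratio at either of these sites.

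Nearest the gene, a site 3.58 kb upstream of its start, at 234748252 to 234749450, was called in all 1,25D lists. The fold was 9.55, 9.11 and 8.55 in the 1,25D lists, against 3.78 and 3.21 in EtOH replicates 2 and 3, with no peak in EtOH replicate 1. The groups did not overlap, and the 1,25D lists differed little from each other (9.07 ± 0.503, SD, n = 3). The site was the longest of the 46, at 1198 bp: in 1,25D replicate 3 it was 1 peak of 1163 bp, while 1,25D replicate 2 had 2 peaks there, the second with a fold of 4.41. The EtOH peaks within it were 170 and 144 bp long.

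Inside the gene, 1.19 kb from its start, a site at 234743907 to 234744263 had a fold of 4.55 in 1,25D replicate 2 and 4.17 in 1,25D replicate 3 and was in no other list. EtOH replicate 3 had a separate peak 4.15 kb from the start, at 234741048 to 234741192, with a fold of 3.01. These were the only sites that overlapped the gene, and neither was in more than 2 lists.

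A group of 4 sites in all 1,25D lists lay downstream of the gene within 7.13 kb, between 93.6 and 86.5 kb from its start. Its strongest member, at 234658170 to 234658782, had a fold of 9.88, 10.4 and 17.1 in the 1,25D lists and no EtOH peak. 1,25D replicate 3 was well above the other replicates, which gives the mean of 12.5 a SD of 4.06 (n = 3). It was the strongest site of the window with no EtOH peak and number 137 of the 1217 sites. EtOH replicate 1 had a weak peak with a fold of 2.96 that began 159 bp beyond its end, and the site leaves the 1,25D-only class when peaks up to 200 bp apart are joined.

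The other members of the group were weaker and closer together. The outermost, at 234651648 to 234652056, had a fold of 4.995, 5.69 and 4.05 in the 1,25D lists and no EtOH peak. The next, at 234652874 to 234653667, had 5.88, 4.38 and 4.12 in the 1,25D lists, against 2.95 in EtOH replicate 2. It was 1 long peak in 1,25D replicate 2 but 2 separate peaks in 1,25D replicate 1. The EtOH peak overlapped only the second of these, which had a fold of 3.68, and the peak of 1,25D replicate 3 ended before the EtOH peak began. The last, at 234654104 to 234654636, had 5.46, 6.02 and 5.47 in the 1,25D lists, against 3.88 in EtOH replicate 3. Each EtOH peak within this group came from a different library, and none of the 4 sites was in 2 EtOH lists.

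The strongest upstream site had close neighbours as well. Within 9.23 kb, from 371 to 380 kb upstream, 3 sites were in all 1,25D lists. The middle one, at 235122655 to 235123125, was the most alike between treatments: its fold was 6.77, 6.53 and 6.35 in the 1,25D lists, against 6.75 and 5.06 in EtOH replicates 2 and 3. EtOH replicate 2 lay within the range of the 1,25D lists, so the groups overlapped, and EtOH replicate 1 had no peak. Ranked within its own list, where the peak with the highest fold is number 1, it was number 416, 516 and 584 in the 1,25D lists and number 114 and 187 in those EtOH lists.

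The third, at 235124717 to 235125304, had a fold of 5.15, 5.51 and 3.65 in the 1,25D lists and no EtOH peak. Its 1,25D peaks were centred within 15.5 bp of each other, the tightest of the 13 sites. Over those sites the centres of the 1,25D peaks spread by a median of 88.5 bp and at most 202 bp.

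**Figure D2:**
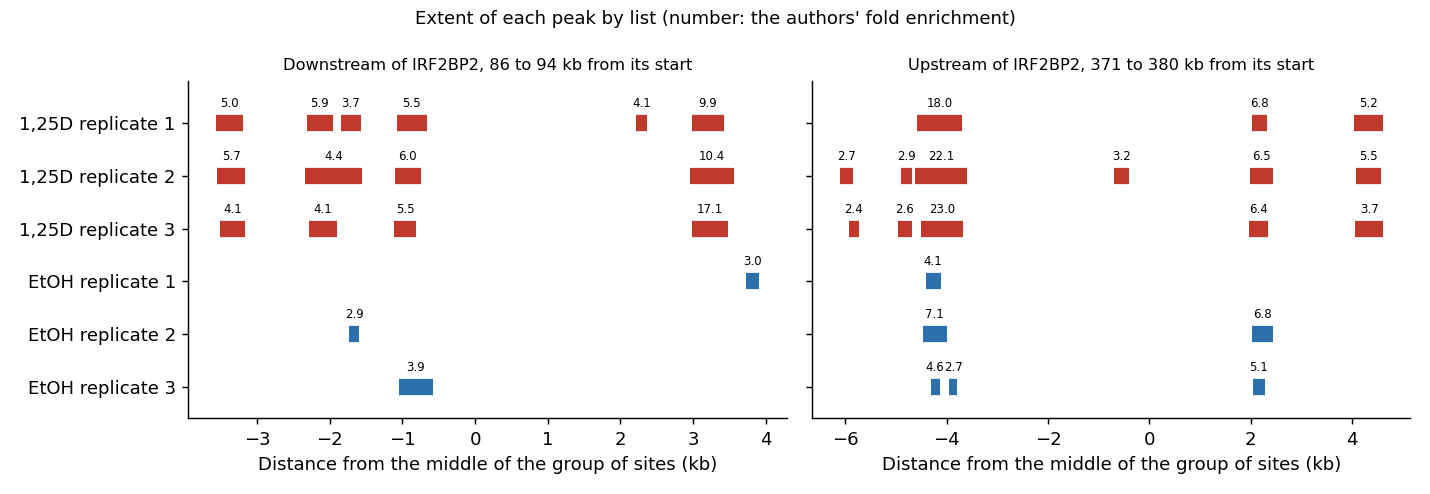
Extent of every peak, by list, in the downstream group (left) and the far upstream group (right) of sites; the x axis is the distance from the middle of the group in kb, and the number over each bar is the authors' fold enrichment. In the left panel the 1,25D lists share 4 sites, whereas each EtOH list has 1 peak, each at a different place. In the right panel the 1,25D lists share 3 sites. Every EtOH list has a peak at the strongest of these, and EtOH replicates 2 and 3 have one at the middle site. Each panel also holds a 1,25D peak found in 1 list only.

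The remaining 4 of the 13 sites stood more than 10 kb from the next such site. At 229 kb upstream, 234974066 to 234974679 had a fold of 6.90, 6.42 and 4.81 in the 1,25D lists, against 2.95 in EtOH replicate 2. At 347 kb, 235091447 to 235092164 had 4.13, 5.77 and 5.39 in the 1,25D lists, against 4.30 in EtOH replicate 2, which lay within the 1,25D range. At 45.1 kb, 234790104 to 234790702 had 3.61, 5.13 and 5.78 in the 1,25D lists, against 3.21 and 3.19 in EtOH replicates 2 and 3. The weakest of the 13, 169 kb upstream at 234914103 to 234914552, had 3.08, 2.73 and 2.54 in the 1,25D lists and no EtOH peak.

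The 4 sites without an EtOH peak had mean 1,25D folds of 12.5, 4.91, 4.77 and 2.78, so they held the lowest value of the 13 and also the third highest. Of the 9 sites with at least 1 EtOH peak, 7 had a lowest 1,25D fold above the highest EtOH fold, and over the 725 such sites of the covered genome the share was 63.3%. Among the 13 sites the median of the mean 1,25D folds was 5.65, next to 5.64 over all 1217 sites called in all 3 1,25D lists, so the sites of the window were not stronger than their class. Their number of EtOH lists was 0 at 4 sites, 1 at 4, 2 at 3 and 3 at 2, or 30.8%, 30.8%, 23.1% and 15.4% of 13, against 40.4%, 20.3%, 14.8% and 24.5% of the 1217.

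**Figure D3:**
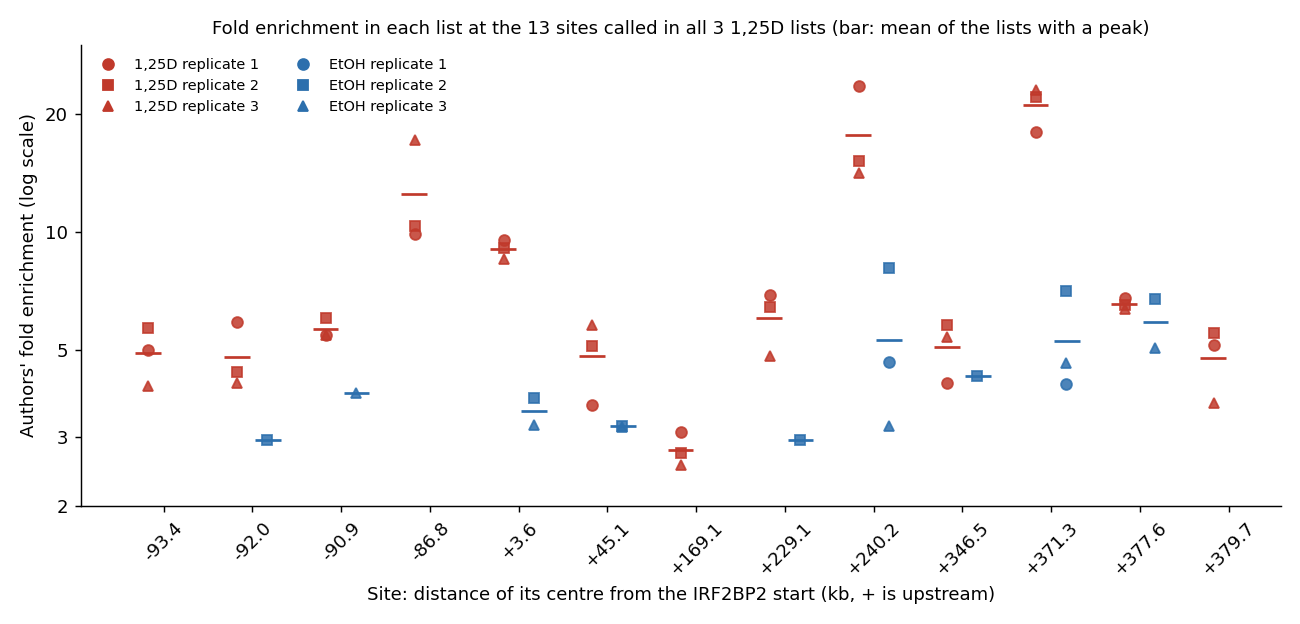
Fold enrichment in each list (log axis) at the 13 sites called in all 3 1,25D lists, ordered along the chromosome by the distance of their centre from the IRF2BP2 start in kb; 1,25D values are left of EtOH values, each marker is 1 replicate, a bar is the mean of the lists with a peak, and a missing marker means that no peak was called. Values of the groups overlap at the sites 347 and 378 kb upstream and stand furthest apart at 371 kb, with means of 21.0 and 5.27.

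These counts leaned on single libraries. Without 1,25D replicate 1 the number of 1,25D-only sites was 8, since the sites at 234743907, 234977489, 235114574 and 235115725 were in both other 1,25D lists and no EtOH list. Without EtOH replicate 2 the number of 1,25D-only sites was 7, since the sites at 234652874, 234974066 and 235091447 had no other EtOH peak. Without EtOH replicate 1 the number of sites in every remaining list was 5, since the sites at 234748252, 234790104 and 235122655 lacked a peak in that library alone. EtOH replicate 1 had 9 peaks in the window, the fewest of the 6 lists. The weakest p-value of an EtOH peak at any of the 13 sites was 0.0011, which is below the highest p-value of the EtOH replicate 1 list, 0.00431. Such p-values exist only for lists with a peak, so they do not say what EtOH replicate 1 had at the sites it did not call. A missing peak says that the caller's threshold was not passed, and sequencing depth is unknown.

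A further 6 sites were in 2 lists. Besides the one inside the gene, 3 were in 1,25D replicates 2 and 3: 234977489 to 234977766, with folds of 3.19 and 3.12, and 235114574 to 235114955 and 235115725 to 235116003, which lie just short of the strongest site, with folds of 2.70 and 2.40 and of 2.91 and 2.57. The last of these ends 67 bp before that site. The other two were in a list of each treatment. At 234859324 to 234859588 the fold was 3.66 in 1,25D replicate 1 and 2.53 in EtOH replicate 2, and at 234866063 to 234866423 it was 3.72 in 1,25D replicate 2 and 3.11 in EtOH replicate 2. In the window 4 of 46 sites were in exactly 2 1,25D lists and no EtOH list, against 2.19% of all sites, and none was in exactly 2 EtOH lists and no 1,25D list, against 1.01%.

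Single-list sites numbered 27, which is 58.7% of the 46, against 89.8% of all sites. The 1,25D lists gave 10 of them (3, 5 and 2 in replicates 1 to 3), or 21.7% of the 46, against 24.4% of all sites. The EtOH lists gave 17 (7, 7 and 3), or 37.0%, against 65.4%. Their median fold was 3.31 in both groups. By the share of their own list's peaks that they exceed, the highest were all from EtOH replicate 2 and lay between 7.76 and 13.8 kb upstream of the gene start. At 234753622 to 234753783 the fold was 5.30, at 234758958 to 234759280 it was 4.06 and at 234752955 to 234753103 it was 3.83. The first of these was above 97.9% of the peaks of its list and was the only single-list site of the window with a fold of 5 or more. EtOH replicate 1 had a peak in the same stretch, at 234751369 with a fold of 3.98, and 1,25D replicate 1 had one at 234757299 with 3.47, and no 2 of these 5 peaks shared a base.

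The window reaches further upstream of the gene than downstream. Upstream, 455 kb of the window held 33 sites, 9 of them in all 1,25D lists, and downstream 140 kb held 11 sites, 4 of them in all 1,25D lists. Both sites in all 6 lists were upstream, and 2 of the 1,25D-only sites were on each side. Between neighbours of the 13 the gap was 17.1 kb at the median, 0.437 kb at the least and 123 kb at the most. The limits of the window cut through no site. The last site below it, at 234596280, had a fold of 3.48 in EtOH replicate 2 alone, and the first one within it, at 234600262, had 3.95 in EtOH replicate 1 alone. The last site within it, at 235174766, had 2.94 in EtOH replicate 3 alone, and the next one beyond, at 235246917 to 235247707, was again in all 1,25D lists, with folds of 5.72, 6.67 and 8.24, against 3.73 in EtOH replicate 2. Below the window the nearest site in all 1,25D lists, at 233462998, was 1136 kb away from its limit.

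To place the window among others, the covered genome was divided into 1716 windows of 600 kb. The median window had 0 sites called in all 3 1,25D lists, 1027 windows had none, and 0.117% of windows had 13 or more: the IRF2BP2 window and a window on chromosome 1 from 40200000 to 40800000, which had 16. For 1,25D-only sites, 0.583% of windows had 4 or more, and for sites of any kind 7.63% had 46 or more. The window was picked for its peaks, so its place among the others is no test.

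The windows most like it by that count were of different make-up. The one with 16 sites on chromosome 1 held 98 sites in all, and its repeated sites had a median 1,25D fold of 3.08 and a highest of 9.53. Its neighbour from 40800000 to 41400000 had 10 repeated sites with a median of 2.92. A window on chromosome 12 from 124800000 to 125400000 had 11, among 22 sites in all, with a median of 7.99 and a highest of 20.8, against a highest of 21.0 at IRF2BP2. When the fold had to be 5 or more, the chromosome 12 window had 7 sites in all 1,25D lists and the IRF2BP2 window 6, the most of any windows, followed by 5 on chromosome 1 from 222000000 to 222600000.

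**Figure D4:**
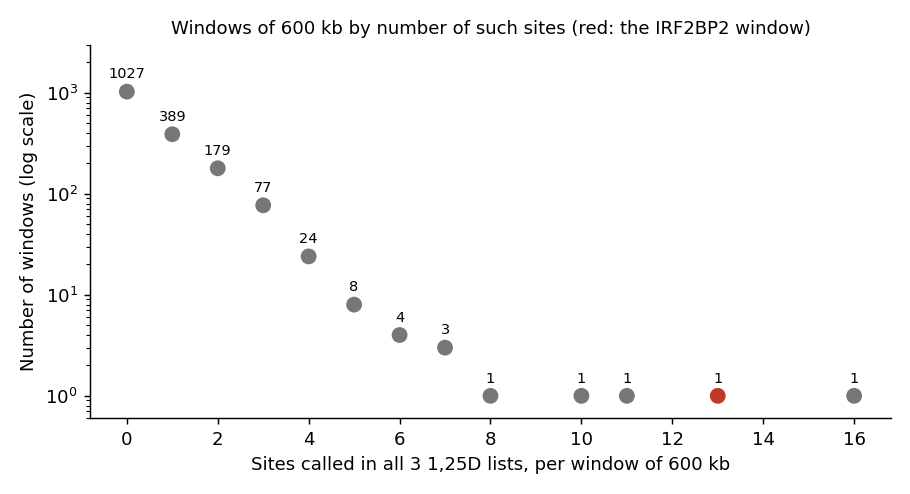
Number of windows of 600 kb (y axis, log scale) by how many sites called in all 3 1,25D lists they hold (x axis), over the part of the genome covered by all 6 lists; the number over each point is its number of windows. The red point is the IRF2BP2 window, with 13 sites; 1027 of 1716 windows have none and 1 has more, with 16.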

How the data were processed

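Peak lists of 6 VDR ChIPmentation libraries were used, 3 per treatment. The submitters' processing notes name hg19 (GRCh37), Bowtie 1.1 and MACS2, and each list is of 1 library. Not given in the sources used here were the MACS2 version, its threshold, the control and any removal of duplicates. For each peak the authors deposited a fold, the ratio over the caller's background, and a p-value, per the file headers. The highest p-value was 0.00433 and 0.00431 in 1,25D and EtOH replicate 1 and 0.00978 to 0.00997 in the other lists. Whether starts count from 0 or 1 is not stated, so a start may be off by 1 bp.

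Of the lists, 3 ended in mid-line as used here. That line was dropped, and all lists were compared up to position 50293713 of chromosome 16, in the lists' order of chromosomes (1, 10 to 16). Peaks sharing at least 1 bp were merged into sites, and a list's highest fold at a site was taken as its value (Python 3.11.15, pandas 2.3.3, numpy 2.4.6). Merging was run on simulated lists whose planted sites lay far apart and whose peaks always overlapped within a site. Sites as close together as some in this window, or with split peaks, were not tried. Window limits and gene interval came with the choice of the region. Members, windows and settings were chosen with earlier results of these data known. Every site in 2 or more lists is named, with the 3 single-list sites of the highest within-list percentile of fold, those in the gene or within 5 kb of it, and the 3 windows with the most sites in all 1,25D lists; the single-list sites at 234751369 and 234757299 and those at the window's limits were picked after their values were seen. No test was run, since 3 against 3 libraries allow no exact permutation p below 0.1 and the window was chosen from these lists. Genes related to IRF2BP2 and the sequences under the peaks need an hg19 annotation or genome and were not analysed here. Columns of other samples were not used (0 columns).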

Additional observations from a re-analysis of the deposited data

How the results depend on the processing

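Depth is unknown, folds come from separately processed lists, and with 3 libraries each a site's class can turn on 1 peak. Counts of sites in the window were within 1.5 times of those reported when 1 highest p-value was set for all lists (1 of 99 peaks was above it), when 50% of the shorter peak had to be shared, and when peaks up to 200 bp apart were joined, where 3 sites instead of 4 were 1,25D-only. With peaks of a fold of 5 or more there were 13 sites, 6 of them in all 1,25D lists, 3 1,25D-only and 0 in all 6 lists, and 9.33 peaks per 1,25D list. A window of 300 kb around the same centre, which leaves out the gene, held 20 sites, 4 in all 1,25D lists, 1 1,25D-only and 1 in all 6 lists, and 7.33 peaks per 1,25D list; fewer bases are covered there by construction. Leaving out 1 library at a time gave 39 to 44 sites, 4 to 8 1,25D-only sites (8 without 1,25D replicate 1 and 7 without EtOH replicate 2), 2 to 5 sites in all lists (5 without EtOH replicate 1), 13 to 17 in all 1,25D lists, 0 EtOH-only sites throughout and 19 to 22 peaks per 1,25D list. The number of 600 kb windows with more sites in all 1,25D lists was 1 in each of these settings other than the 300 kb window, for which it was not computed. The settings for sites in all 1,25D lists, for windows and for peaks per list were chosen after seeing the data.

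Leaving out a library could not move the mean 1,25D fold of a named site by 1 SD. An EtOH library does not enter that mean. Dropping 1 of so few 1,25D values shifts their mean by less than 1 SD whatever the values are. The mean 1,25D fold of the 19 named sites moved by less than 1 SD in 164 of 169 recalculations. Most of the recalculations left out a library, so the count is no measure of how stable the folds are. Among the exceptions is the site at 234748252, with 8.28 when the peaks of a list were averaged. The other 4 are sites with at most 2 1,25D lists, taken at the fold of their mean within-list percentile. No paired analysis was possible because no result comes from a test, so no replicate block could be fitted. As a description, same-numbered lists both called 10 of the sites, in 17 pairs, and the 1,25D fold was the higher in 16 of them. The exception was replicate 2 at 235122655, with a ratio of 0.966. The same count over all sites was not made. Over the sites in all 3 1,25D lists, where an EtOH list had a peak, the median ratio of mean folds was 1.55. The pairs share the same few libraries and the window was chosen by these folds, so nothing is read from the count.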

Other observations

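Fold and p-value came in repeated pairs. In 1,25D replicate 1 the peaks at 234657429 and 235091510 both had a fold of 4.13 and a p-value of 6.43e-06, and in EtOH replicate 2 the peaks at 234653477 and 234974122 both had a fold of 2.95 and a p-value of 0.000774. Over the covered part, 83.8% to 91.6% of the peaks of the 1,25D lists and 93.9% to 97.1% of those of the EtOH lists shared both values with another peak of their list.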
